A study of Homo sapiens with 8 samples.

Results

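Genes of Wnt signaling were followed across a pair of head and neck squamous cell carcinoma lines and 1 cisplatin-resistant clone of each. The genes were 50 listed symbols in 5 roles, comprising ligands with their secretion factors, receptors, the beta-catenin arm, planar polarity, and inhibitors with the regulators of receptor turnover. Of these, 49 had counts and 1 co-receptor was not analysed here. The default expression filter passed 47, out of 15221 genes tested and 35113 with transcripts, and the 2 members under the filter were FZD10 and SFRP1. Transcripts were quantified by RNA sequencing of polyA libraries in 4 groups of 2 libraries, 8 in all. HPV− parental cells were UPCISCC89 (SCC89) and the HPV− resistant cells were clone #411, selected from them in 2.5 and then 5 μM cisplatin. HPV+ parental cells were UDSCC2 (SCC2) and the HPV+ resistant cells were clone #35, selected in 5 and then 10 μM. Both resistant groups were grown without cisplatin after selection. Each is a single-cell clone of 1 established line, so HPV status, line, clone and dose cannot be told apart. Whether a group's 2 libraries came from separate cultures is not stated in any source, so the p-values reflect the spread between these samples alone, possibly a technical one.

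Wnt ligands are lipid-modified by PORCN, carried to the cell surface by WLS and bound by Frizzled receptors with a co-receptor such as LRP5. In the beta-catenin arm, binding holds off the destruction complex of APC, AXIN and GSK3B, so that beta-catenin (CTNNB1) reaches TCF and LEF factors on DNA. Other ligands act without beta-catenin through ROR2, RYK or the planar polarity proteins CELSR and VANGL, which align cells in a sheet. In squamous epithelia the pathway is known for its part in stem cell upkeep and in the growth of skin appendages.

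Libraries held 20250246 to 27341284 estimated read pairs. All 10 squamous markers, among them KRT5 and TP63, were over 1 CPM in every library (CPM, counts scaled for library size), and their summed level was 18600 to 19500 CPM in HPV− parental, 5240 to 6570 in HPV− resistant, 5290 to 5490 in HPV+ parental and 5500 to 6570 in HPV+ resistant cells. Of 7 fibroblast markers, COL3A1, DCN and LUM were high in the HPV+ line, and the list summed to 3070 to 3390 CPM in HPV+ parental and 1450 to 3220 in HPV+ resistant libraries, against 4.70 to 12.3 in the HPV− line. The fibroblast receptor PDGFRB was at 0 counts in all HPV+ libraries and PDGFRA had 3 counts in 1 of them. Endothelial markers summed to at most 0.453 CPM, and of 5 leukocyte markers, summing to 10.7 to 156 CPM, CD68 held most and the pan-leukocyte marker PTPRC had at most 4 counts in a library.

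Wnt ligands were among the members called in both clones, and the direction differed by line for some of them. WNT4 and WNT10A rose in the HPV− clone and fell in the HPV+ clone, while WNT5A fell in the HPV+ clone and had 0 counts throughout the HPV− line. A gene was called when edgeR's quasi-likelihood test gave it a p below 0.05 after Benjamini-Hochberg adjustment across the whole table and it changed more than 2-fold, that is beyond 1 on the log2 scale. Standard errors (SE) are on that scale. Each is approximate, being the size of the log2 fold change over the square root of the test's F statistic. By this rule 7 of 47 members rose in the HPV− clone (14.9%, where 6.06% of all genes tested rose) and 1 fell (2.13%, against 5.22%). In the HPV+ clone 3 rose (6.38%, against 3.4%) and 4 fell (8.51%, against 4.6%). The median log2 fold change of the 47 members was 0.25 in HPV− cells and −0.18 in HPV+ cells, where the medians over all genes tested were 0.036 and 0.00. Without WNT5A, AXIN2 and DKK1, which held 3 or fewer counts in the HPV− line, the HPV− median was 0.31. In the test of the difference between the lines, taken as the change in HPV+ cells minus the change in HPV− cells, 9 members were lower (19.1%, against 6.57% of all genes) and 2 were higher (4.26%, against 5.17%). The members and the other gene lists were chosen with earlier results of these data known. Shares set against all genes therefore describe the lists and do not test whether they differ from all genes.

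**Figure D1:**
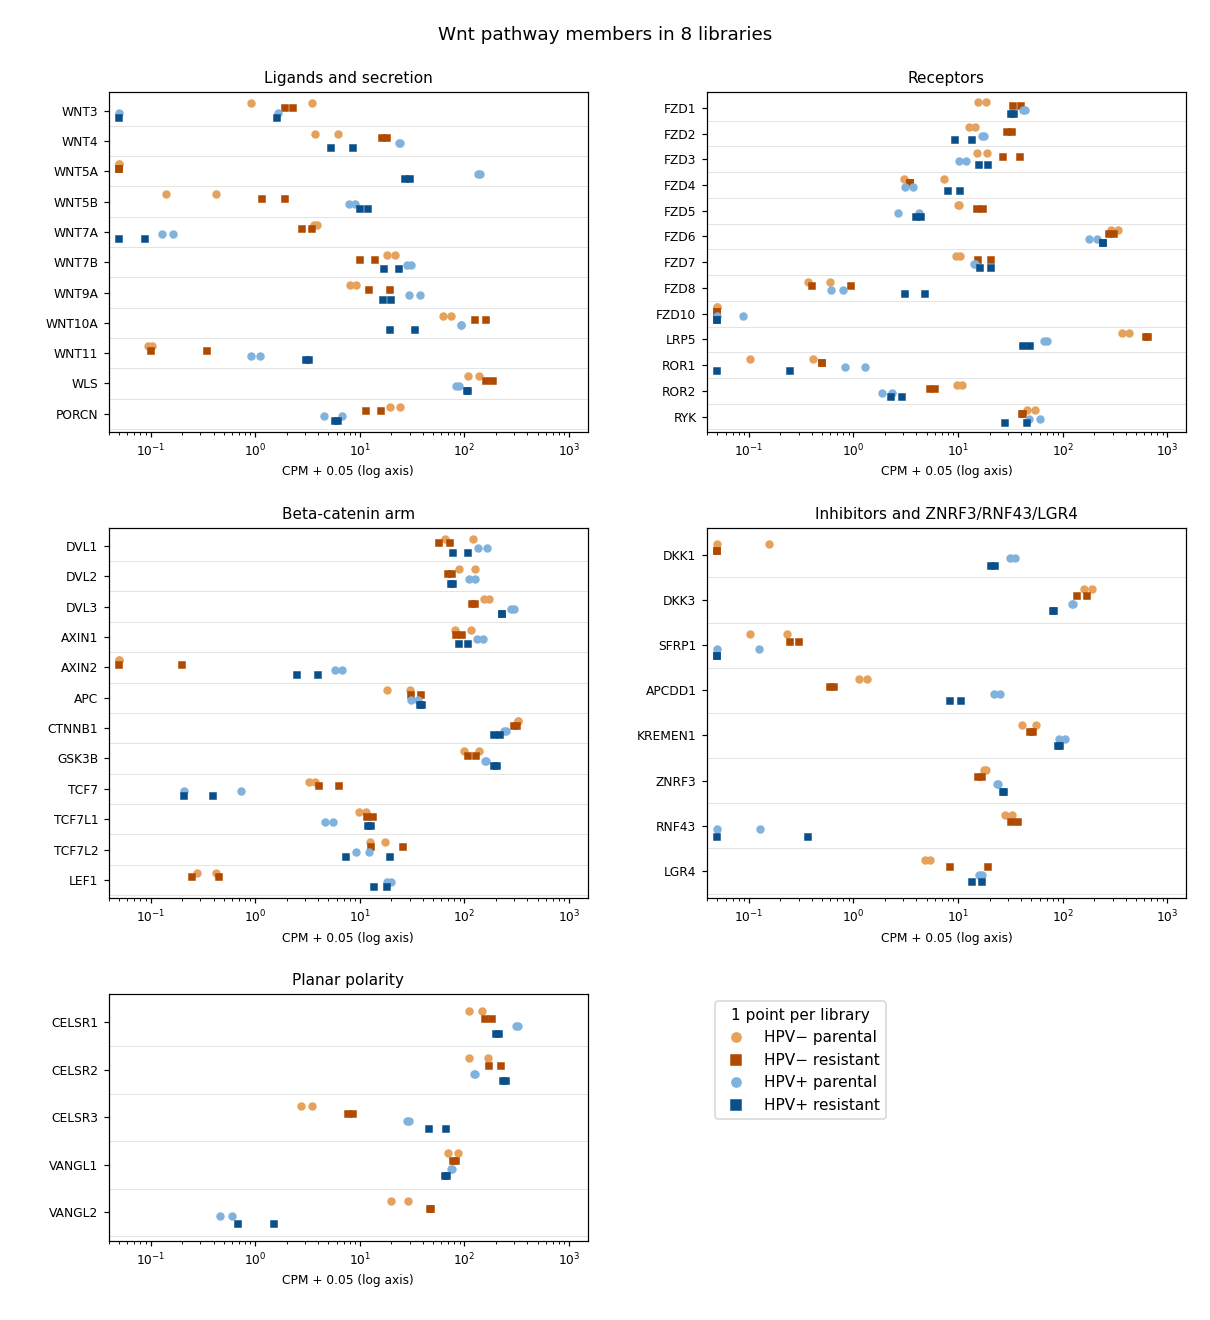
Level of each of 49 members in each of 8 libraries, by role, as CPM + 0.05 on a log axis, with 1 point per library (circles, parental; squares, resistant). WNT4 and WNT10A move right from parental to resistant in HPV− libraries and left in HPV+ libraries, and AXIN2, LEF1, DKK1, VANGL2 and RNF43 lie further apart between the lines than between a clone and its parent. WNT5A is at 0 in the HPV− line and lower in the HPV+ clone than in its parent.

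The ligands were the role with the most calls. Of 11 members, 3 rose in the HPV− clone (WNT4, WNT5B and WNT10A), which is 27.3%, against 6.06% of all genes tested. There 0 fell by edgeR or DESeq2 (against 5.22% by edgeR), with 5 up and 2 down at an unadjusted p under 0.05. In the HPV+ clone 3 fell (WNT4, WNT5A and WNT10A), which is 27.3%, against 4.6% of all genes. There 0 rose by edgeR or DESeq2 (against 3.4% by edgeR), with 1 up and 5 down at an unadjusted p under 0.05. The difference between the lines was called for 4 ligands (36.4%, against 6.57% of all genes), all with the lower change in HPV+ cells. With so few members, chosen with earlier results known, these counts do not set the ligands apart from all genes.

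WNT10A, a beta-catenin ligand known for its part in skin appendages and teeth, was the most abundant of the 9 WNT genes per transcript length in every library. Its position is chromosome 2, 218880852 to 218899581 (GRCh38). Its level was 75.0 and 61.8 CPM in HPV− parental and 160 and 127 CPM in HPV− resistant libraries, and the groups did not overlap. In HPV+ cells it was 93.5 and 92.5 CPM in parental and 33.8 and 19.5 CPM in resistant libraries, the reverse order. The log2 fold change was 1.07 (SE 0.24, adjusted p = 0.00978, edgeR) in HPV− cells and −1.80 (0.24, adjusted p = 0.00147, edgeR) in HPV+ cells. The difference was −2.87 (SE 0.34, adjusted p = 0.000678, edgeR). The HPV− call was lost without HPV− parental replicate 2 (adjusted p = 0.0946, edgeR) or HPV− resistant replicate 1 (adjusted p = 0.0738, edgeR).

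WNT4, a ligand known for its part in kidney and reproductive tract development, lies on chromosome 1 from 22117313 to 22143969. It had 6.09 and 3.65 CPM in HPV− parental and 18.1 and 16.3 CPM in HPV− resistant libraries. HPV+ parental libraries held 23.8 and 24.1 CPM and HPV+ resistant libraries 8.49 and 5.23 CPM. The HPV− clone thus stood near the upper pair and the HPV+ clone near the lower pair. The difference between the changes was −3.63 on the log2 scale (SE 0.40, adjusted p = 0.000348, edgeR), from 1.82 in HPV− and −1.80 in HPV+ cells, and no library left out ended any of these 3 calls. The protein-coding transcript WNT4-201 held 47.1 to 94.8% of the gene's TPM (a level per transcript length) and WNT4-202 held 5.24 to 52.9%.

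WNT5A, a ligand best known outside the beta-catenin arm, had 140 and 135 CPM in HPV+ parental and 30.4 and 27.0 CPM in HPV+ resistant libraries, 4.79 times lower (log2 fold change −2.26, SE 0.15, adjusted p = 0.000113, edgeR). All 4 HPV− libraries had 0 counts, so no change could be measured there. HPV+ parental cells were at least 1870-fold above HPV− parental cells, taking 3 counts over the group as the floor. Of the 7 fibroblast markers, DCN (99.4 and 119 to 43.6 and 20.0 CPM) and LUM (241 and 290 to 91.0 and 65.8 CPM) were also called lower in the HPV+ clone. COL3A1, the most abundant of them, went from 2720 and 2970 to 3080 and 1360 CPM (−0.36, adjusted p = 0.568, edgeR) and was not called. COL1A1 (−0.06, adjusted p = 0.905) and COL1A2 (1.46 on 0 to 32 counts, adjusted p = 0.521, edgeR) were not called either, PDGFRA and PDGFRB had too few counts to be tested, and the part of these markers in the WNT5A result was not tested. In bulk RNA, fewer cells of a type and less RNA per cell cannot be told apart.

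Transcripts of WNT5A begin in more than 1 place. Those starting upstream of the inner RefSeq start summed to 22.3 and 22.6 TPM in HPV+ parental and 5.86 and 5.52 TPM in HPV+ resistant libraries. Those starting at or downstream of it summed to 23.5 and 23.5 TPM and then to 3.32 and 0.427 TPM. Both sets were lower in the clone. Of the inner set, WNT5A-205 went from 9.26 and 11.5 TPM to 0 in both resistant libraries and WNT5A-203 from 11.4 and 10.8 to 1.65 and 0.427 TPM. The split of reads among transcripts varied between replicates, WNT5A-201 being at 11.7 TPM in HPV+ parental replicate 1 and 0 in replicate 2 with WNT5A-202 at 10.6 and 22.6, so single transcripts were not tested.

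The promoter windows of the ligands called in the HPV+ clone are shown because these genes fell together there. Each window runs from 250 bases before to 50 bases after a RefSeq transcript start, given 5′ to 3′ on the gene's strand in GRCh38.p14. None of the 4 windows holds CTTTGA or CTTTGT, the letters of common TCF and LEF sites, on either strand, so none is in capitals. A match was held by 26.2% of all 35116 windows of the RefSeq table, so 4 windows without one do not set these genes apart.
WNT4 (chr1:22143048-22143347, minus strand): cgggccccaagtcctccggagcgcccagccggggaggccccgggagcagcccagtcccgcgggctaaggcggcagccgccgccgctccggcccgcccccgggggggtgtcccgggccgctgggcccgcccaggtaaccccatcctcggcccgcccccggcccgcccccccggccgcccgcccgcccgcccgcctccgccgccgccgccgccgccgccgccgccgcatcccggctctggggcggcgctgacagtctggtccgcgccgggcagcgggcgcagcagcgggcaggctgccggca
WNT10A (chr2:218880602-218880901, plus strand): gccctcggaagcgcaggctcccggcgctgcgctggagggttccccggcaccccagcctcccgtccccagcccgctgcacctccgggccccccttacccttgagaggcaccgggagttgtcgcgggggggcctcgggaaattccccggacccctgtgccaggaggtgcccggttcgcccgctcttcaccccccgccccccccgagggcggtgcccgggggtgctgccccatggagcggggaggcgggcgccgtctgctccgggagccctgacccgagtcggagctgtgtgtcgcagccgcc
WNT5A, start of WNT5A-201 (chr3:55487257-55487556, minus strand): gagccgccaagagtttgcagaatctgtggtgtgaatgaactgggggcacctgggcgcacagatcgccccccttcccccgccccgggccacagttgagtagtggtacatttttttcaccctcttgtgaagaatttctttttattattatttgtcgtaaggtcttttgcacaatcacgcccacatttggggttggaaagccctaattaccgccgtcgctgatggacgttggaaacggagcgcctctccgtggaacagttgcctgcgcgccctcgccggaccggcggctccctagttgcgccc
WNT5A, inner start (chr3:55481349-55481648, minus strand): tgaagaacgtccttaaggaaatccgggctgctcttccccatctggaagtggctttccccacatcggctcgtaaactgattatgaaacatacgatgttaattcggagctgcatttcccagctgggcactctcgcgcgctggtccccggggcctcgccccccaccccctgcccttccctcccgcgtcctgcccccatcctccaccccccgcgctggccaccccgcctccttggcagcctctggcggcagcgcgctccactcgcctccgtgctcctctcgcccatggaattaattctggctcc
The windows differ in composition. WNT4 is 85.7% and WNT10A 76.7% G or C, with 47 and 30 CpG, while the WNT5A windows at the WNT5A-201 start and the inner start are 56.3 and 63.7% with 21 and 22 CpG. The start of WNT5A-202, the upstream transcript with a level above 0 in all 4 HPV+ libraries, is at 55489945 and lies in neither window. Over all 35116 windows of the RefSeq table the medians were 58.7% and 14 CpG. The tested genes around WNT4, WNT5A, WNT5B, WNT9A and WNT10A, up to 15 on each side, had median log2 fold changes of 0.01 to 0.10 in HPV− and −0.21 to 0.20 in HPV+ cells. Of the 30 around WNT10A, 3 rose and 0 fell in the HPV− clone, and 0 rose and 1 fell in the HPV+ clone. Those that rose include the ligand WNT6, from 0.694 and 1.31 to 11.8 and 3.64 CPM. Its log2 fold change was 2.93 (SE 0.76, adjusted p = 0.0217, edgeR) in HPV− and 0.44 (adjusted p = 0.714, edgeR) in HPV+ cells.

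WNT5B, a close relative of WNT5A, followed a different course. HPV− libraries held 0.374 and 0.0902 CPM in parental and 1.86 and 1.10 CPM in resistant cells, and HPV+ libraries held 8.92 and 7.85 and then 11.9 and 10.0 CPM. It rose in the HPV− clone (log2 fold change 2.70, SE 0.53, adjusted p = 0.00501, edgeR), from a few counts, and had 0.38 (adjusted p = 0.482, edgeR) in HPV+ cells. With a transcript length offset the HPV− value was 1.65 (adjusted p = 0.0525, edgeR) and with DESeq2 on the 4 libraries 2.65 (adjusted p = 0.0526). The difference of −2.32 (adjusted p = 0.0341, edgeR) was lost without any 1 of 6 libraries, at adjusted p of 0.0583 to 0.122, and was kept without HPV− parental replicate 1 or HPV− resistant replicate 2. WNT5B-201 held 30.8 to 74.9% of the gene's TPM in HPV+ libraries.

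WNT9A, a ligand with a known part in joint formation, went from 9.24 and 8.07 CPM to 12.1 and 19.2 CPM between HPV− parental and resistant libraries. HPV+ libraries held 37.3 and 29.6 CPM in parental and 19.6 and 16.5 in resistant cells. Neither change passed the fold limit (0.86, adjusted p = 0.0248, and −0.89, adjusted p = 0.0258, edgeR), and their difference of −1.74 did (SE 0.33, adjusted p = 0.00628, edgeR). The 4 ligands left had no call in either clone. WNT7B had log2 fold changes of −0.73 (adjusted p = 0.0361) and −0.55 (adjusted p = 0.11), WNT7A was 2.77 to 3.88 CPM in HPV− and at most 0.113 CPM in HPV+ libraries, and WNT11 was 0.868 and 1.06 CPM in HPV+ parental and 2.98 and 3.25 CPM in HPV+ resistant libraries (1.69, adjusted p = 0.0615, edgeR). Only 25.0% of the transcripts of WNT3 were listed, and its values, 0 to 3.42 CPM, are uncertain.

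Of the secretion factors, WLS was 83.6 to 186 CPM over all libraries, with log2 fold changes of 0.49 in HPV− (adjusted p = 0.0416) and 0.30 in HPV+ cells (adjusted p = 0.201, edgeR). PORCN was 11.5 to 23.9 CPM in HPV− and 4.46 to 6.76 CPM in HPV+ libraries, with −0.66 (adjusted p = 0.0729) and 0.09 (adjusted p = 0.851, edgeR). Neither was called in a clone.

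The 9 WNT genes together summed to 52.8 and 52.8 TPM before and 126 and 104 TPM after selection of the HPV− line. In HPV+ cells they summed to 144 and 149 TPM in parental and 66.0 and 53.7 TPM in resistant libraries. The clones thus lay between the parental levels or near the lower one, and the order of the lines was opposite before and after selection. In the HPV− line WNT10A held 78.3 and 78.1% of the sum in parental cells and 86.5 and 83.4% in the clone. In HPV+ parental cells WNT10A held 44.1 and 45.8% and WNT5A 31.9 and 30.9%. In the HPV+ clone these shares were 40.7 and 29.4% for WNT10A and 13.9 and 11.1% for WNT5A, and WNT5B reached 15.3 and 15%.

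**Figure D2:**
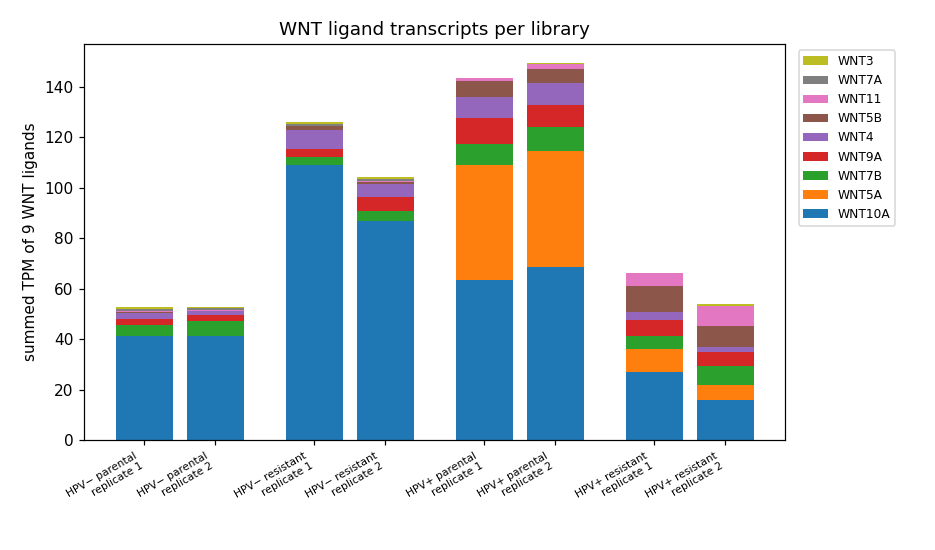
Summed TPM of 9 WNT ligand genes in each of 8 libraries, 1 stacked bar per library with a colour per gene. The bars are 52.8 TPM high in both HPV− parental libraries, mostly WNT10A, and 144 and 149 TPM in HPV+ parental libraries, where WNT10A and WNT5A make up most of the height.

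Among 12 receptors tested, 2 rose in the HPV− clone (FZD1 and FZD2) and 2 rose in the HPV+ clone (FZD4 and FZD8). Each pair is 16.7% of the receptors, against 6.06 and 3.4% of all genes tested. None fell in either clone by edgeR or DESeq2, where edgeR called 5.22 and 4.6% of all genes lower. At an unadjusted p under 0.05, 1 was lower in HPV− and 4 were lower in HPV+ cells. With so few members, these counts do not set the receptors apart from all genes. FZD1 went from 15.4 and 18.3 CPM to 33.2 and 40.2 CPM in HPV− cells and from 43.2 and 41.7 CPM to 34.3 and 32.3 CPM in HPV+ cells. Its HPV− log2 fold change of 1.12 (SE 0.16, adjusted p = 0.00114, edgeR) brought the clone into the range of the HPV+ libraries, and the difference between the lines was −1.47 (adjusted p = 0.00228, edgeR). Just under the fold limit, the HPV− value was 0.99 once HPV− parental replicate 1 was left out and 0.97 without HPV− resistant replicate 2.

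FZD2 was 14.5 and 12.7 CPM in HPV− parental and 29.6 and 32.6 CPM in HPV− resistant libraries. HPV+ libraries held 17.8 and 16.8 CPM in parental and 13.6 and 9.30 CPM in resistant cells. The HPV− log2 fold change was 1.19 (SE 0.21, adjusted p = 0.00262, edgeR), the HPV+ value was −0.60 (adjusted p = 0.0679) and the difference was −1.79 (adjusted p = 0.00274). These calls held without any 1 library. FZD1 and FZD2 are close relatives, each with 1 transcript in the annotation.

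FZD4, the receptor for norrin in the retina, went from 2.99 and 7.21 CPM to 3.42 and 3.44 CPM in HPV− cells. In HPV+ cells it went from 3.62 and 3.06 to 10.4 and 7.94 CPM, a log2 fold change of 1.46 (SE 0.38, adjusted p = 0.0261, edgeR). The call was lost without any 1 of the 4 HPV+ libraries, at adjusted p of 0.0544 to 0.161. The difference of 2.03 (adjusted p = 0.0289, edgeR) was kept without HPV− parental replicate 1 or HPV+ resistant replicate 2 and lost without any other library, at adjusted p of 0.0702 to 0.106. FZD8 was 0.32, 0.541, 0.906 and 0.349 CPM in the HPV− libraries, 0.747 and 0.566 in HPV+ parental and 4.76 and 3.06 CPM in HPV+ resistant libraries. Its HPV+ value of 2.57 (SE 0.56, adjusted p = 0.012, edgeR) was lost without either HPV+ parental library or HPV+ resistant replicate 1, at adjusted p of 0.0651 to 0.0993.

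LRP5, a co-receptor for Frizzled, had the highest mean TPM of the receptors in HPV− cells. It was 372 and 428 CPM in HPV− parental and 630 and 659 CPM in HPV− resistant libraries, against 70.6 and 65.7 in HPV+ parental and 41.9 and 48.4 CPM in HPV+ resistant libraries. The changes of 0.69 (adjusted p = 0.00658) and −0.59 (adjusted p = 0.0199) were under the fold limit, and their difference of −1.28 was called (SE 0.20, adjusted p = 0.00263, edgeR). Among its 30 tested neighbours on chromosome 11, 8 fell and 3 rose in the HPV− clone.

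FZD6 held 76.1 to 87.7% of the TPM of 9 Frizzled genes in every library, which summed to 83.8 to 130 TPM. Its log2 fold changes were −0.11 and 0.30 (adjusted p = 0.635 and 0.185, edgeR), so the Frizzled genes that were called are the less abundant ones. FZD3 (0.96, adjusted p = 0.0102) and FZD7 (0.87, adjusted p = 0.0123) were higher in the HPV− clone by less than the fold limit, and FZD5 was 0.69 (adjusted p = 0.065, edgeR). The receptors for signaling without beta-catenin were not called in a clone. ROR2 went from 9.61 and 10.8 to 5.34 and 5.98 CPM in HPV− cells (−0.85, adjusted p = 0.042, edgeR) and was 1.81 to 2.86 CPM in HPV+ libraries, RYK was 28.3 to 60.5 CPM in all libraries, and ROR1 was at most 1.25 CPM. FZD10 was at 0 in 7 libraries and 0.0378 CPM in HPV+ parental replicate 2.

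**Figure D3:**
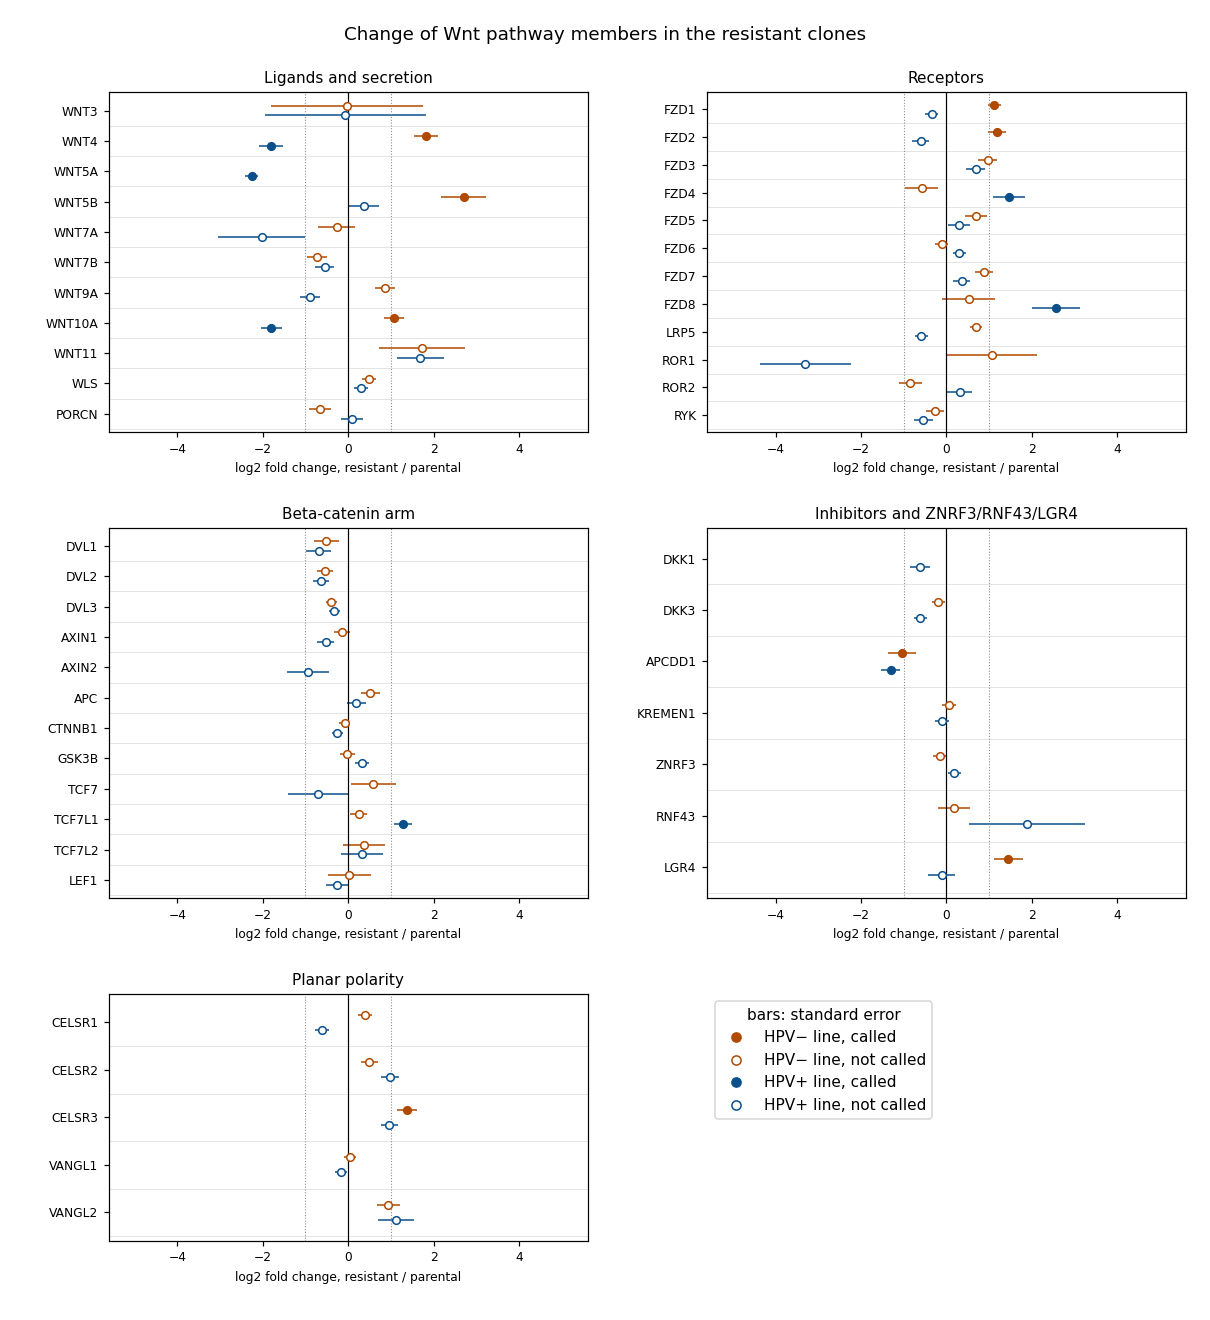
Log2 fold change of resistant over parental cells for each of 47 members tested, by role, in the HPV− line (orange) and the HPV+ line (blue), with bars of 1 standard error (SE) and filled points for called genes. WNT4 and WNT10A are filled on opposite sides of 0. WNT5A, AXIN2 and DKK1, with 3 or fewer counts in the HPV− line, have no HPV− point.

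In the beta-catenin arm, TCF7L1 was the member called in a clone. Of 12 members, 0 were called in the HPV− clone by edgeR or DESeq2 (1 up and 2 down at an unadjusted p under 0.05), where 6.06 and 5.22% of all genes rose and fell. In the HPV+ clone 1 rose (8.33%, against 3.4%) and 0 fell by either tool (1 higher and 4 lower unadjusted). With so few members, these counts do not set the arm apart from all genes. CTNNB1 itself was 298 to 324 CPM in HPV− and 192 to 249 CPM in HPV+ libraries and was the most abundant member of the arm by mean TPM in every group. Its log2 fold changes were −0.08 (SE 0.13, adjusted p = 0.715) and −0.26 (0.13, adjusted p = 0.208, edgeR). TCF7L1, a TCF factor best known as a repressor, went from 9.67 and 11.3 to 11.6 and 13.3 CPM in HPV− cells and from 5.46 and 4.64 to 12.8 and 12 CPM in HPV+ cells, so that the HPV+ clone stood at the level of HPV− cells. The HPV+ change was 1.29 (SE 0.21, adjusted p = 0.00296, edgeR). The difference of 1.04 (adjusted p = 0.035, edgeR) was kept only without HPV− parental replicate 1 among the libraries left out, the adjusted p being 0.0546 to 0.162 without any other.

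Dishevelled proteins pass the signal from Frizzled to both arms. DVL1, DVL2 and DVL3 went in sum from 150 and 115 to 107 and 101 TPM in HPV− cells and from 213 and 197 to 142 and 172 TPM in HPV+ cells. Their log2 fold changes were −0.40 to −0.54 in HPV− cells (adjusted p of 0.0449 to 0.22, edgeR). In HPV+ cells they were −0.33 to −0.69 (adjusted p of 0.0319 to 0.13, edgeR). All were under the fold limit, and DVL2 had an adjusted p under 0.05 in both lines. The 30 tested neighbours of DVL2 had a median of −0.51 in HPV− cells with 10 called lower, and those of DVL3 had −0.40 there and −0.37 in HPV+ cells. Of the destruction complex, AXIN1, APC and GSK3B had values of −0.53 to 0.52, with adjusted p of 0.0774 to 0.969 (edgeR). The 27 tested neighbours of AXIN1 on chromosome 16 had a median of −0.80 in HPV+ cells, with 4 called lower, and 0.41 in HPV− cells.

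The target and feedback inhibitor AXIN2 and the factor LEF1 were tied to the line. AXIN2 was 5.70 and 6.65 CPM in HPV+ parental and 3.97 and 2.44 CPM in HPV+ resistant libraries (log2 fold change −0.95, adjusted p = 0.216, edgeR), while HPV− libraries held 3 counts in all. LEF1 was 13.7 to 20.0 CPM in HPV+ and 0.199 to 0.403 CPM in HPV− libraries. TCF7 had the opposite order, 3.20 to 6.28 CPM in HPV− and 0.157 to 0.680 CPM in HPV+ libraries. TCF7L2 was 7.28 to 25.9 CPM and varied as much between replicates as between groups, with 83.9% of its transcripts listed.

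Planar polarity members had positive log2 fold changes in the HPV− clone in 5 of 5 cases, where 7968 of 15221 genes tested were positive. There 1 was called higher (20.0%, against 6.06% of all genes). By edgeR or DESeq2 0 fell (against 5.22% by edgeR), and 0 fell at an unadjusted p under 0.05. In the HPV+ clone edgeR called 0 in either direction, against 3.4% of all genes higher and 4.6% lower. DESeq2 called 1 higher there, with 3 up and 1 down at an unadjusted p under 0.05. With so few members, these counts do not set planar polarity apart from all genes. The seven-pass cadherin CELSR3 was 2.72 and 3.47 CPM in HPV− parental and 7.65 and 8.53 CPM in HPV− resistant libraries. In HPV+ cells it was 29.2 and 27.9 and then 45.3 and 66.0 CPM, so that the resistant libraries were the higher ones in both lines. The log2 fold changes were 1.38 (SE 0.23, adjusted p = 0.00234) and 0.96 (0.20, adjusted p = 0.0102, edgeR), the latter just under the fold limit. CELSR3-201 held 26.1 to 81.2% of the gene's TPM and the retained-intron transcript CELSR3-202 up to 70.2%.

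CELSR1 was 111 and 147 CPM in HPV− parental and 158 and 183 CPM in HPV− resistant libraries, and 310 and 322 CPM in HPV+ parental and 199 and 213 CPM in HPV+ resistant libraries. The changes were 0.40 (adjusted p = 0.0897) and −0.62 (adjusted p = 0.0251), and the difference of −1.02 (adjusted p = 0.0128, edgeR) lay at the fold limit. With 1 library left out, it was under that limit without replicate 1 of HPV− parental cells (−0.82), replicate 2 of the HPV− clone (−0.91), replicate 2 of HPV+ parental cells (−0.99) and replicate 1 of the HPV+ clone (−0.97). It was also under the limit with DESeq2 on all 8 libraries or RLE factors (−0.99 each) and with the transcript length offset (−0.94). CELSR2 was 122 and 125 CPM in HPV+ parental and 251 and 231 CPM in HPV+ resistant libraries, 0.97 on the log2 scale (adjusted p = 0.0108, edgeR). VANGL1 had changes of 0.04 and −0.18 (adjusted p = 0.889 and 0.42). VANGL2, with 66.7% of its transcripts listed, was 20.0 and 28.9 CPM in HPV− parental, 47.4 and 46.4 in HPV− resistant (0.94, adjusted p = 0.0282, edgeR) and at most 1.47 CPM in HPV+ libraries.

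Among the inhibitors and regulators of receptor turnover, 7 of 8 were tested. APCDD1, a membrane-bound Wnt inhibitor, was the only member called lower in both clones. It went from 25.3 and 21.9 to 10.7 and 8.37 CPM in HPV+ cells (log2 fold change −1.31, SE 0.22, adjusted p = 0.00384, edgeR) and from 1.07 and 1.31 to 0.604 and 0.548 CPM in HPV− cells (−1.04, SE 0.32, adjusted p = 0.0354, edgeR). The HPV+ call was lost without HPV+ parental replicate 1 (adjusted p = 0.0685, edgeR). The HPV− call, on about 1 CPM, was lost by DESeq2 (adjusted p = 0.0747), with a transcript length offset (−0.53, adjusted p = 0.56), and without HPV− parental replicate 2, either HPV− resistant library or either HPV+ parental library (adjusted p of 0.0601 to 0.12, edgeR). APCDD1-201 held 45.3 to 78.6% of its TPM in HPV+ libraries.

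LGR4, an R-spondin receptor that keeps Frizzled at the surface, was 4.81 and 5.37 CPM in HPV− parental and 19.4 and 8.38 CPM in HPV− resistant libraries. HPV+ libraries held 15.8 and 16.8 CPM in parental and 16.7 and 13.5 CPM in resistant cells. The HPV− change of 1.45 (SE 0.34, adjusted p = 0.013, edgeR) was 0.72 without HPV− resistant replicate 1 and was lost there and without either HPV− parental library (adjusted p of 0.0718 to 0.099). The difference of −1.56 (adjusted p = 0.049, edgeR) was kept only without HPV− resistant replicate 2, the adjusted p being 0.0795 to 0.142 without any other library. It was also lost with RLE factors (adjusted p = 0.0533, edgeR), upper-quartile factors (0.0532) and the transcript length offset (0.11). SFRP1, a secreted decoy receptor, was not tested, its level being 0.0534 and 0.180 and then 0.252 and 0.199 CPM in HPV− cells, 0 and 0.0755 CPM in HPV+ parental libraries and 0 in both libraries of the HPV+ clone.

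DKK1, a secreted antagonist of the co-receptors, was 31.2 and 34.7 CPM in HPV+ parental and 20.5 and 22.6 CPM in HPV+ resistant libraries (log2 fold change −0.62, adjusted p = 0.105, edgeR). HPV− libraries held 2 counts in all. RNF43, a ubiquitin ligase that removes Frizzled from the membrane, had the reverse order, 28.0 to 37.3 CPM in HPV− and at most 0.317 CPM in HPV+ libraries. Its relative ZNRF3 was 15.4 to 18.3 CPM in HPV− and 23.7 to 27.2 CPM in HPV+ libraries. DKK3, the most abundant member of this role by mean TPM in every group, had a change of −0.61 in HPV+ cells (adjusted p = 0.0234, edgeR), and KREMEN1 had 0.06 and −0.11 (adjusted p = 0.831 and 0.698).

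DKK1 and RNF43 are known targets of beta-catenin, and their windows, a pair for RNF43, are shown, with CTTTGA and CTTTGT (or TCAAAG and ACAAAG on the other strand) in capitals, because they sat on opposite sides of the lines.
DKK1 (chr10:52314031-52314330, plus strand): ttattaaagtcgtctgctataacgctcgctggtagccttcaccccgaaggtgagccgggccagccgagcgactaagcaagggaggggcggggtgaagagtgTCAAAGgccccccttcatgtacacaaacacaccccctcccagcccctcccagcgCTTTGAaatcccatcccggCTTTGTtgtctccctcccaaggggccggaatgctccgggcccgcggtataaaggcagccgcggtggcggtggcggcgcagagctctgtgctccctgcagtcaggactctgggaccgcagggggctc
RNF43, upstream start (chr17:58417485-58417784, minus strand): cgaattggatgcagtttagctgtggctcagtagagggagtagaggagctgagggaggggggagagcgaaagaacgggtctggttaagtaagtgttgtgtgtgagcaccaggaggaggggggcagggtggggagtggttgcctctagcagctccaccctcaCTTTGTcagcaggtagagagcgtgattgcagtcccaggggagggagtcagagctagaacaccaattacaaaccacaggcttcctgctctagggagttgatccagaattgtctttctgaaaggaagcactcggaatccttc
RNF43, downstream start (chr17:58402672-58402971, minus strand): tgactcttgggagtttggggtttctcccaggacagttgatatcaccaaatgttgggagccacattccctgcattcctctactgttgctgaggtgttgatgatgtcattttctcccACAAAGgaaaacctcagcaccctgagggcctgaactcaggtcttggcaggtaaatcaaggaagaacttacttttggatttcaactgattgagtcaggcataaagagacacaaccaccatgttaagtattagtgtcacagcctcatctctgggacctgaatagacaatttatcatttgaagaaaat
The DKK1 window holds 3 matches and each RNF43 window 1. Of other members far apart between the lines, whose windows are not shown, LEF1, VANGL2 and WNT7A had 0 matches. The TCF7 windows had 2 and 0, and AXIN2 had no window. Of 46 RefSeq windows searched, for 36 of the members, 9 held a match on either strand (19.6%), against 26.2% of all 35116 windows. The member windows were richer in G and C, with a median of 68.0% against 58.7%. A match is a description of the letters and does not show binding.

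The parental lines differed in more members than the clones did from their parents. In HPV+ parental cells 14 of 47 members were higher than in HPV− parental cells (29.8%, against 17.7% of all genes tested) and 9 were lower (19.1%, against 19.3%). Of the members higher in HPV+ cells, 5 were ligands, WNT4 (log2 fold change 2.30), WNT5A, WNT5B (5.20), WNT9A (1.95) and WNT11. The others were FZD1 (1.33), AXIN2, LEF1 (5.99), CELSR1 (1.29), CELSR3 (3.19), DKK1, APCDD1 (4.30), KREMEN1 (1.03) and LGR4 (1.68). Where one line had few counts, AXIN2 was at least 84.3-fold higher in HPV+ cells, DKK1 was 675 times higher with a 95% counting interval of 187 to 5580, and WNT11 was 19.7 times higher (5.17 to 167). Intervals and floors cover counting error only.

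The members lower in HPV+ parental cells were WNT7A (−5.21), PORCN (−1.95), FZD5 (−1.56), LRP5 (−2.55), ROR2 (−2.32), TCF7 (−3.01), TCF7L1 (−1.05), VANGL2 (−5.65) and RNF43. RNF43 was 797 times higher in HPV− cells, with an interval of 220 to 6590. Of the TCF and LEF factors, LEF1 was thus the higher in HPV+ and TCF7 in HPV− cells, beside TCF7L1 and TCF7L2 in both. The TCF7L1 value was under the fold limit without HPV− parental replicate 2 (−0.98) or HPV+ parental replicate 2 (−0.94), and that of KREMEN1 without HPV− parental replicate 1 (0.81) or HPV+ parental replicate 2 (0.93). All other calls held without any 1 library.

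**Figure D4:**
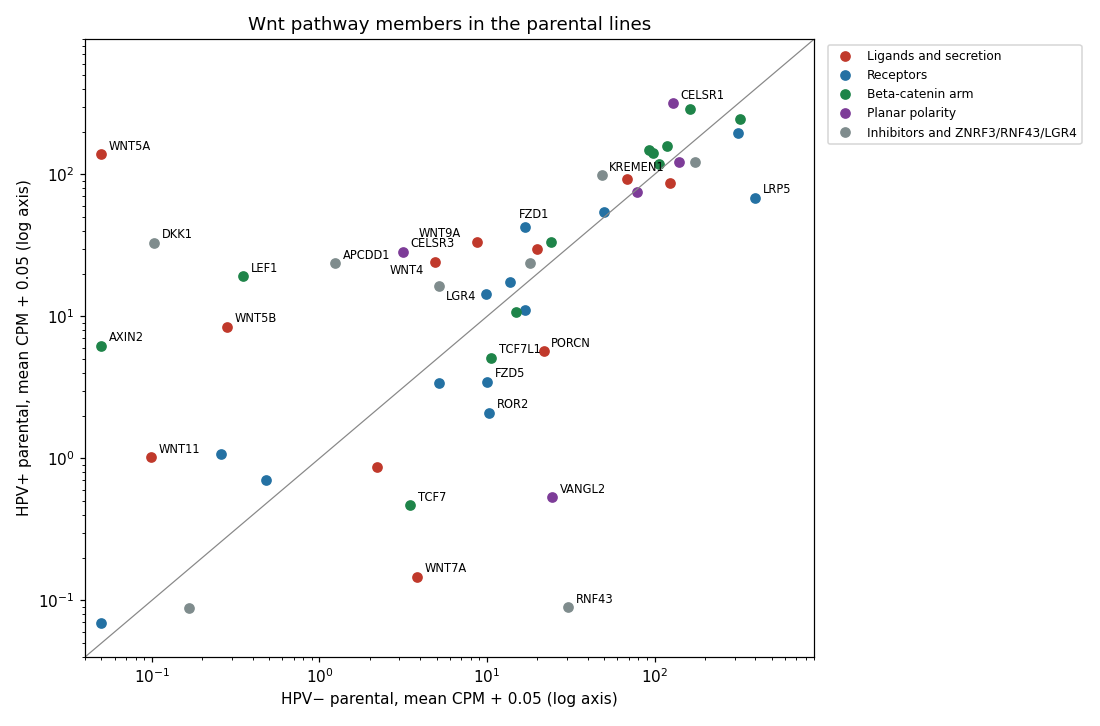
Mean CPM + 0.05 of each of 49 members in HPV− parental cells (horizontal) and HPV+ parental cells (vertical), both on log axes, n = 2 libraries each, coloured by role, with called genes named and a line of equal level. WNT5A, DKK1, LEF1 and AXIN2 lie far above the line, and RNF43, VANGL2 and WNT7A far below it.

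Beyond the members, 91 of 110 other genes of the pathway were tested. In the HPV− clone 6 rose (6.59%, against 6.06% of all genes) and 5 fell (5.49%, against 5.22%). For the HPV+ line, 5 rose in the clone (5.49%, against 3.4%) and 7 fell (7.69%, against 4.6%). In the difference 4 were higher (4.40%, against 5.17%) and 7 lower (7.69%, against 6.57%). Among 12 target genes tested, 1 rose (8.33%, against 6.06% of all genes) and 4 fell (33.3%, against 5.22%) in the HPV− clone. In the HPV+ clone 2 targets rose (16.7%, against 3.4%) and 2 fell (16.7%, against 4.6%). The median log2 fold changes of the 12 targets were −0.35 and −0.06, against 0.036 and 0.00 over all genes. EPHB3, an ephrin receptor and known beta-catenin target, fell in both clones, from 16.6 and 14.5 to 6.85 and 6.88 CPM in HPV− cells (−1.17, adjusted p = 0.000642, edgeR) and from 214 and 210 to 59.8 and 52.4 CPM in HPV+ cells (−1.92, adjusted p = 5.59e-05, edgeR). The target CCND1 also fell in both. It went from 1940 and 2470 to 893 and 1070 CPM in HPV− cells (−1.17, adjusted p = 0.00757, edgeR). In HPV+ cells it went from 113 and 110 to 59.7 and 33.8 CPM (−1.25, adjusted p = 0.0088, edgeR). PLAUR, the urokinase receptor, went in opposite directions, from 19.6 and 18.8 to 5.79 and 7.33 CPM in HPV− cells (−1.55, adjusted p = 0.00106, edgeR) and from 2.67 and 2.34 to 9.08 and 11 CPM in HPV+ cells (2.0, adjusted p = 0.000542, edgeR).

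FOSL1, a subunit of the AP-1 transcription factor, fell in the HPV− clone from 259 and 308 to 23.2 and 47.7 CPM (−3.00, adjusted p = 0.00114, edgeR). EPHB2 rose from 18.7 and 23.5 to 71.0 and 81.4 CPM (1.85, adjusted p = 0.000153) and the ligand WNT3A from 0.214 and 0.316 to 1.51 and 1.20 CPM (2.32, adjusted p = 0.00502, edgeR), the latter not called by DESeq2 on the 4 libraries (adjusted p = 0.0828). The planar polarity gene PRICKLE1 rose from 25.5 and 36.2 to 82.8 and 48.5 CPM (1.09, adjusted p = 0.012, edgeR), a call lost without HPV− parental replicate 1 (0.85, adjusted p = 0.105) or HPV− resistant replicate 1 (0.65, adjusted p = 0.0856).

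The transcription factor SOX9 rose in the HPV+ clone from 0.354 and 0.604 to 2.5 and 1.94 CPM (2.19, adjusted p = 0.00189, edgeR) and the glypican GPC6 from 1.65 and 2.64 to 12.6 and 10.3 CPM (2.41, adjusted p = 0.00462, edgeR), the latter lost without HPV+ parental replicate 1 (adjusted p = 0.0604). The heparan sulfate proteoglycan SDC1 fell from 739 and 739 to 365 and 360 CPM (−1.03, adjusted p = 0.00163, edgeR), and was under the fold limit with upper-quartile factors (−0.98) and with the transcript length offset (−0.97). SHISA3, of a family known to hold Frizzled inside the cell, fell from 1.73 and 2.34 CPM to 0 counts, at least 34.7-fold lower by the same floor, and was not called by DESeq2 on all 8 libraries (adjusted p = 0.23).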

How the data were processed

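RNA from 8 libraries of 4 groups was sequenced after polyA selection. The authors ran Salmon with GRCh38, and the files they deposited give an estimated count of read pairs for each transcript, with no scaling between libraries, and a TPM for each transcript, scaled by its length. The sources used here do not give Salmon's version, its annotation or a strand setting, so reads of a gene and an antisense partner cannot be told apart, and reads shared by similar transcripts were split by Salmon. Both values were summed per gene after matching 172550 of 187432 transcripts to GENCODE release 44. The other 14882, with 4.33 to 5.13% of a library's counts, were left out.

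Rounded gene counts were tested with edgeR 4.0.16 (R 4.3.3, limma 3.58.1), using TMM factors, the default expression filter, 1 coefficient per group over all 8 libraries (4 residual degrees of freedom) and Benjamini-Hochberg adjustment over 15221 genes. The alternatives were DESeq2 1.42.0, edgeR on the 4 libraries of a comparison, other scaling factors, a transcript length offset, other filters, a replicate block, no minimum fold and each library left out in turn. The method was tested on simulated data. Members and lists were chosen with earlier results of these data known. Every member was accounted for by role, with values in every library for members called in a clone or in the difference and for those not tested. Other pathway genes were named for the 3 smallest p in each direction and clone, and WNT6 and CCND1 were named besides. Transcripts were named for called members whose main transcript held under 80% of the gene's TPM. Promoter windows are from RefSeq (GRCh38.p14). Replicates of each group differed by more than the sampling noise. Depth limits the precision for genes with few counts. Python 3.11.15 was used with pandas 2.3.3 and numpy 2.4.6, and plots were drawn in matplotlib 3.10.9.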

Additional observations from a re-analysis of the deposited data

Results flagged for a closer look

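For 11 members the change upon resistance differed between the lines in the test of the difference itself (edgeR, adjusted p under 0.05 and a difference beyond 1 on the log2 scale). The change in HPV+ cells minus the change in HPV− cells was −3.63 for WNT4, −2.87 for WNT10A, −2.32 for WNT5B and −1.74 for WNT9A among the ligands. It was −1.79 for FZD2, −1.47 for FZD1, −1.28 for LRP5 and 2.03 for FZD4 among the receptors. It was 1.04 for TCF7L1, −1.02 for CELSR1 and −1.56 for LGR4. Of these 11, WNT4 and WNT10A were called in both clones, in opposite directions. The values of WNT5B, FZD4, TCF7L1, CELSR1 and LGR4 each ended as calls under the transcript length offset.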

How the results depend on the processing

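No member call changed sign under any alternative run. With no minimum fold change, the HPV− clone had 13 members up and 5 down, the HPV+ clone had 5 up and 9 down, and 14 were lower in HPV+ than in HPV− parental cells. The 1 member lower in the HPV− clone became 0 with edgeR on the 4 libraries, DESeq2 on 8 or on 4 libraries, upper-quartile factors and the transcript length offset, and ranged from 0 to 2 with 1 library left out. Members higher in the HPV+ clone numbered 5 with upper-quartile factors and 1 to 4 with 1 library left out. Members with a more positive change in HPV+ cells numbered 0 with the transcript length offset, which ended 5 of the 11 calls of the difference (WNT5B, FZD4, TCF7L1, CELSR1 and LGR4), and 0 to 2 with 1 library left out. Replicate numbers did not pair the samples (correlations of deviations from group means, −0.074 to 0.142), and a replicate block left 1 member with a more positive change, with adjusted p = 0.0566 for TCF7L1 and 0.0552 for LGR4 in the difference. It changed no other member call in the clones or the difference. With an HPV− or HPV+ group of 2 reduced to 1, the lone library was assumed to vary like the others.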
